A study of Triticum aestivum with 34 samples.

Results

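The wheat gene models described as transcription factor UDT1-like are set out here across spikelet positions and days. They were chosen by the words UDT1 or UNDEVELOPED TAPETUM in their deposited description and by a level of at least 1 FPKM (fragments scaled for transcript length and for the total of the library) in at least 2 libraries. The rule found 2 of 162233 gene models, TraesCS2A03G0452800 on chromosome 2A and TraesCS2D03G0457200 on chromosome 2D, and TraesCS2A03G0452800 is named in the rule itself. No other model carried these words, so none lay just outside the threshold. Of the 2 models, the 2A copy reached 1 FPKM in 15 libraries, with 9.87 FPKM as its highest value, and the 2D copy in 14 libraries, with 8.89 FPKM as its highest.

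The samples were basal spikelets and central spikelets of wheat (Triticum aestivum) of the genotype shimai22, all untreated, sampled from the terminal spikelet stage onward, when the ear has set its last spikelet, with days counted from that stage (days 6, 9, 12, 15, 21 and 27). Spikelets are the units of the ear that carry the florets, and the design asked how gene expression differs between these positions over time. Each position had 17 libraries. Groups of one position and day held 3 of them, apart from basal day 15 and central day 21 with 2. Total RNA of whole spikelets was sequenced, so anthers were only part of each sample, and the number of plants behind a library was not given in the sources used here. Libraries held 95144712 to 126139684 counts, and 49060 to 55909 models reached 1 FPKM in a library. The replicate numbers are not tied to separate plants by the labels, so p-values measure the spread between libraries, which may be technical.

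UDT1, short for UNDEVELOPED TAPETUM 1, is a basic helix-loop-helix (bHLH) transcription factor known from rice. The tapetum is the innermost layer of the anther wall; it feeds the developing pollen, supplies the material of the pollen wall and then degenerates. In rice, loss of UDT1 leaves the tapetum undifferentiated and the plant male-sterile, and UDT1 acts early, upstream of the bHLH factors TDR and EAT1. In this bulk RNA, fewer cells of a type and less RNA per cell cannot be told apart.

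Coordinates are in the RefSeq v2.1 assembly of Chinese Spring, the reference wheat, since 85% of 90661 high-confidence models overlapped a RefSeq protein-coding gene in it, against 6.4% after a shift of 5 Mb. TraesCS2A03G0452800 lies on the minus strand of chromosome 2A from 201649130 to 201650927, over the RefSeq gene LOC123185151. TraesCS2D03G0457200 lies on the minus strand of chromosome 2D from 183577339 to 183579111, over LOC123052454. Each overlapped 1 RefSeq gene, and the spans given here cover exons and introns together. The deposited annotation gives both the same terms, among them DNA-binding transcription factor activity, protein dimerization, which bHLH factors need, and development of the anther wall tapetum. Bread wheat carries A, B and D subgenomes. No model on chromosome 2B carried the description, and whether the table holds a B copy under another description was not settled, so sums and shares below cover the 2A and 2D copies. Copies on different subgenomes may share reads where their sequences are alike, which was not computed here, so the values of each single copy carry that uncertainty.

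In basal spikelets, both copies had their highest mean on day 9. The 2A copy had 1.95, 2.51 and 2.97 FPKM in the basal libraries of day 6 and 4.27, 3.49 and 2.14 FPKM in those of day 9. The basal libraries of days 6 and 9 overlapped. On day 12 the 2A copy had 1.47, 1.12 and 1.29 FPKM in basal spikelets, on day 15 it had 0.54 and 0.49 FPKM, and on day 21 it had 0.33, 0.27 and 0.46 FPKM.

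In central spikelets, both copies were highest on day 6, the first sampled day, and lower on each sampled day to day 15. The 2A copy had 8.21, 6.89 and 9.87 FPKM in the central libraries of day 6. It had 1.67, 1.88 and 1.97 FPKM in those of day 9, and 0.48, 0.80 and 0.68 FPKM in those of day 12. The central libraries of these 3 days did not overlap, and no basal library reached those of day 6. On day 15 the 2A copy had 0.44, 0.28 and 0.13 FPKM in central libraries, and on day 21 it had 0.16 and 0.47 FPKM there. The 2A copy was listed at 0 in all 3 basal and all 3 central libraries of day 27. Against a floor of 12 counts per library, which covers counting error only, its mean level was at least 24.2-fold higher in basal spikelets of day 6 than of day 27. In central spikelets it was at least 82.8-fold higher on day 6 than on day 27.

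The 2D copy followed the same days. It had 1.62, 2.29 and 2.06 FPKM in the basal libraries of day 6, against 7.69, 6.22 and 8.89 FPKM in the central ones. On day 9 it had 3.09, 3.31 and 1.88 FPKM in basal libraries, against 1.37, 2.94 and 2.62 FPKM in central ones. So the positions were apart on day 6, with basal spikelets low, and overlapped on day 9. On day 12 the 2D copy had 0.86, 0.63 and 2.09 FPKM in basal spikelets, against 0.78, 0.79 and 1.12 FPKM in central spikelets. One basal library of day 12 stood above the other two. On day 15 the 2D copy had 0.53 and 0.22 FPKM in basal spikelets, against 0.45, 0.45 and 0.46 FPKM in central spikelets. On day 21 it had 0.47, 0.57 and 0.35 FPKM in basal spikelets, against 0.41 and 0.75 FPKM in central spikelets. By day 27 it was at 0 in all but 1 basal library (0.06 FPKM) and 1 central library (0.13 FPKM).

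**Figure D1:**
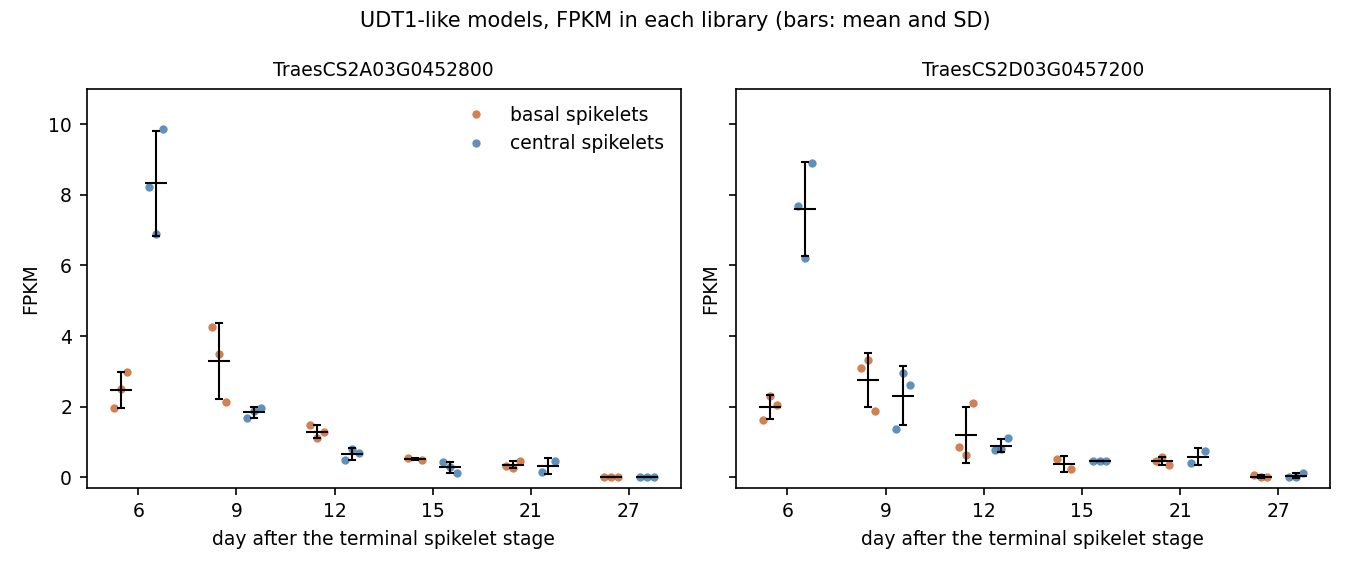
FPKM of both UDT1-like models (vertical axis) in each library by day (horizontal axis, days after the terminal spikelet stage), with basal spikelets left of central spikelets, points for libraries and bars for mean and SD. The central libraries of day 6 lie between 6.22 and 9.87 FPKM, above every other library of either copy.

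Ordered by mean, the levels of the 2A copy began with central day 6 at 8.32 ± 1.49 FPKM (SD, n = 3), whose libraries overlapped no other group. Next came basal day 9 at 3.30 ± 1.08 FPKM, basal day 6 at 2.48 ± 0.51 FPKM and central day 9 at 1.84 ± 0.15 FPKM, and in this run each group overlapped its neighbour. Basal day 12 at 1.29 ± 0.18 FPKM lay below central day 9 and above central day 12 at 0.65 ± 0.16 FPKM, with no overlap on either side. Central day 12 overlapped basal day 15, and basal day 21, central day 21 and central day 15 overlapped in turn. For the 2D copy, central day 6 at 7.60 ± 1.34 FPKM again stood clear of the rest. Basal day 9 at 2.76 ± 0.77 FPKM, central day 9 at 2.31 ± 0.83 FPKM, basal day 6 at 1.99 ± 0.34 FPKM, basal day 12 at 1.19 ± 0.79 FPKM and central day 12 at 0.90 ± 0.19 FPKM overlapped in turn. The groups of days 15 and 21 overlapped in turn as well and lay above day 27.

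On day 6 both copies were lower in basal than in central spikelets. The 2D copy was 3.63-fold lower (log2 difference -1.86 ± 0.30 SE, adjusted p = 4.58e-05, by the quasi-likelihood test of edgeR, adjusted by Benjamini-Hochberg over 71963 tested models). The 2A copy had a log2 difference of -1.67 ± 0.23 SE, which is given as a description with no p because this gene is named in the rule; the same holds for its differences below. The 2D copy passed the test in the lower direction, as did 9.2% of all tested models. Counts of called models below include the 2A copy, so only the 2D copy carries a test free of the rule. Basal libraries lay below all central ones for both copies, as they did for 21.4% of the tested models. The difference of the 2D copy passed the test without any 1 of the 34 libraries, with log2 differences of -1.99 to -1.73.

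On days 9 and 12 edgeR called 1 copy and not the other, but whether the copies differed from each other was not tested. The 2A copy averaged 3.30 FPKM in basal spikelets, against 1.84 FPKM in central ones on day 9, a log2 difference of 0.84 ± 0.25 SE. On day 12 it averaged 1.29 FPKM in basal spikelets, against 0.65 FPKM in central ones, a log2 difference of 0.96 ± 0.33 SE. Its basal libraries lay above all central ones on both days, as for 10.7% of the tested models. For the 2D copy the differences were 0.26 ± 0.32 SE on day 9 (adjusted p = 0.576) and 0.36 ± 0.41 SE on day 12 (adjusted p = 0.551), and neither passed edgeR's test. So 1 of 2 models, the 2A copy named in the rule, was called higher on each of these days. Beside it stood 18.1% of all models on day 9 and 13.6% on day 12. With the counts of both copies summed, the sum passed neither on day 9 (log2 difference 0.55 ± 0.26 SE, adjusted p = 0.105) nor on day 12 (0.65 ± 0.31 SE, adjusted p = 0.123). The count of called models on day 9 went to 0 without basal day 9 replicate 1. On day 12 it went to 0 without basal replicate 1, basal replicate 3, central replicate 1 or central replicate 3 of that day.

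From day 15 on, the positions were not told apart. On day 15 the 2A copy had a log2 difference of 0.76 ± 0.48 SE and the 2D copy of -0.42 ± 0.62 SE (edgeR adjusted p = 0.698). On day 21 the 2A copy had a log2 difference of 0.26 ± 0.51 SE and the 2D copy of -0.19 ± 0.56 SE (edgeR adjusted p = 0.864). On days 15, 21 and 27, edgeR called 0 of 2 models, with 0 at an unadjusted p under 0.05 and 0 by DESeq2 or limma; 22.7%, 17.1% and 21.7% of all models were called on these days. At levels under 1 FPKM the intervals are wide, so these values do not show that the positions were alike.

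Averaged over the 6 days, edgeR called 0 of 2 models, with 0 at an unadjusted p under 0.05 and 0 by DESeq2, while 33.5% of all tested models were called. The 2D copy had a mean log2 difference of -0.45 ± 0.34 SE (adjusted p = 0.334), and of -0.37 ± 0.21 SE without day 27 (adjusted p = 0.171). With limma on log2(FPKM + 1), the 2D copy passed in the mean of 6 days (-0.23, adjusted p = 0.0239). For the 2A copy, a mean over 6 days has no usable test, because both positions stood at 0 on day 27; over the other 5 days its mean log2 difference was 0.23 ± 0.17 SE.

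Whether the difference between positions changed over days was tested with 5 contrasts at once. The 2D copy passed (edgeR adjusted p = 1.68e-03), as did 56.7% of all tested models. The 2D copy was lower in basal spikelets in 3 of 3 libraries on day 6 and mixed afterwards. With edgeR's older quasi-likelihood form the 2D copy had an adjusted p of 0.129.

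**Figure D2:**
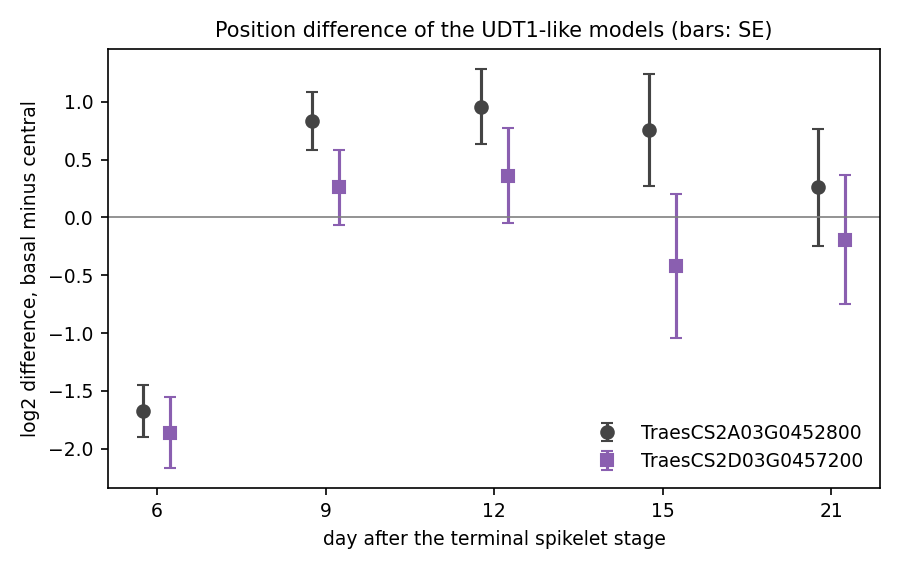
Log2 difference of basal minus central spikelets (vertical axis) for both UDT1-like models on days 6 to 21 (horizontal axis), as edgeR estimates with bars of 1 SE. Both models lie near -1.7 to -1.9 on day 6, and from day 9 on the 2A copy lies above 0 while the 2D copy lies on both sides of it.

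Within basal spikelets, the first step of the 2D copy, day 9 minus day 6, was a log2 difference of 0.33 ± 0.32 SE (adjusted p = 0.475), so no fall was detected between days 6 and 9. The fall came at the next step, day 12 minus day 9 (-1.26 ± 0.35 SE, adjusted p = 5.22e-03, beside 16.5% of all models called lower), and at day 15 minus day 12 (-1.59 ± 0.55 SE, adjusted p = 0.0207, beside 18.1%). With edgeR's older quasi-likelihood form neither of these steps passed (adjusted p = 0.0822 and 0.0659). The step between days 9 and 12 did not pass without basal day 12 replicate 2 (edgeR adjusted p = 0.0504). The step between days 12 and 15 passed neither without basal day 12 replicate 3 (edgeR adjusted p = 0.201) nor without basal day 15 replicate 2 (edgeR adjusted p = 0.244). Within central spikelets, the level of the 2D copy fell between days 6 and 9 (log2 difference of day 9 minus day 6 -1.79 ± 0.30 SE, adjusted p = 1.58e-05), as 21.3% of all tested models did, and again by day 12 (day 12 minus day 9 -1.36 ± 0.38 SE, adjusted p = 6.08e-03), as 12.1% did. The second of these falls did not pass with the older form (adjusted p = 0.0706). The next step, day 15 minus day 12, was -0.81 ± 0.47 SE (adjusted p = 0.191). These are edgeR values. The 2A copy had steps of 0.27 ± 0.24, -1.37 ± 0.26 and -1.25 ± 0.38 SE in basal spikelets, against -2.24 ± 0.24, -1.49 ± 0.31 and -1.05 ± 0.42 SE in central ones. Over all days both copies changed in basal and in central spikelets, as did 92.1% and 88.1% of the tested models; for the 2D copy, edgeR gave adjusted p = 1.19e-09 in basal and 5.15e-14 in central spikelets.

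Basal spikelets were also set beside central spikelets of the sampling day before. On basal day 9 the 2D copy averaged 2.76 FPKM, against 7.60 FPKM on central day 6, a 2.89-fold lower level (log2 difference -1.53 ± 0.30 SE, edgeR adjusted p = 3.18e-04). The 2A copy averaged 3.30 FPKM on basal day 9, against 8.32 FPKM on central day 6, a log2 difference of -1.41 ± 0.22 SE. The 2D copy was called lower here, as were 10.8% of all tested models. The highest sampled basal group of either copy stayed under the central group of day 6, the first sampled day. Levels between sampled days were not measured. Basal day 12 minus central day 9 gave -0.998 ± 0.36 SE for the 2D copy (adjusted p = 0.0372) and -0.53 ± 0.28 SE for the 2A copy. There 1 of 2 models was called lower, beside 10.7% of all models, and 0 were called by DESeq2 or without central day 9 replicate 2 or 3 or basal day 12 replicate 1 or 2. Basal day 15 minus central day 12 gave -1.23 ± 0.57 SE for the 2D copy (edgeR adjusted p = 0.130) and -0.29 ± 0.43 SE for the 2A copy. EdgeR called 0 of 2 models there, with 1 at an unadjusted p under 0.05 and 0 by DESeq2 or limma, beside 20.7% of all models.

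The balance between the copies also varied. Over the 28 libraries of days 6 to 21, the 2D copy made up a median of 49.1% of the FPKM summed over both, between 31% and 78%. The 2A copy was the higher one in all 6 libraries of day 6, and the 2D copy in 4 of 5 libraries of day 21. On day 6 the share of the 2D copy was 44.7 ± 3.4% in basal spikelets, against 47.7 ± 0.5% in central ones (SD, n = 3 each). On day 9 it was 45.8 ± 3.4% in basal spikelets, against 54.4 ± 8.3% in central ones, and on day 12 it was 44.9 ± 14.7% in basal spikelets, against 57.9 ± 7.1% in central ones. The mean share was lower in basal spikelets on each of these days and on days 15 and 21. The daily difference was smallest on day 6, at -3.05 percentage points. It was largest on day 15, at -23.13 points, when both copies were under 1 FPKM in every library. Averaged over 5 daily means, the share was 46.45% in basal spikelets, against 58.03% in central ones, a difference of -11.58 percentage points. Days of low counts thus weigh in it as much as day 6. Leaving out each library in turn gave -13.43 to -9.72 points. This measure was chosen after its values were seen and rests on the 2A copy named in the rule, so it is given as a description with no p, and reads shared between the copies would move it.

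**Figure D3:**
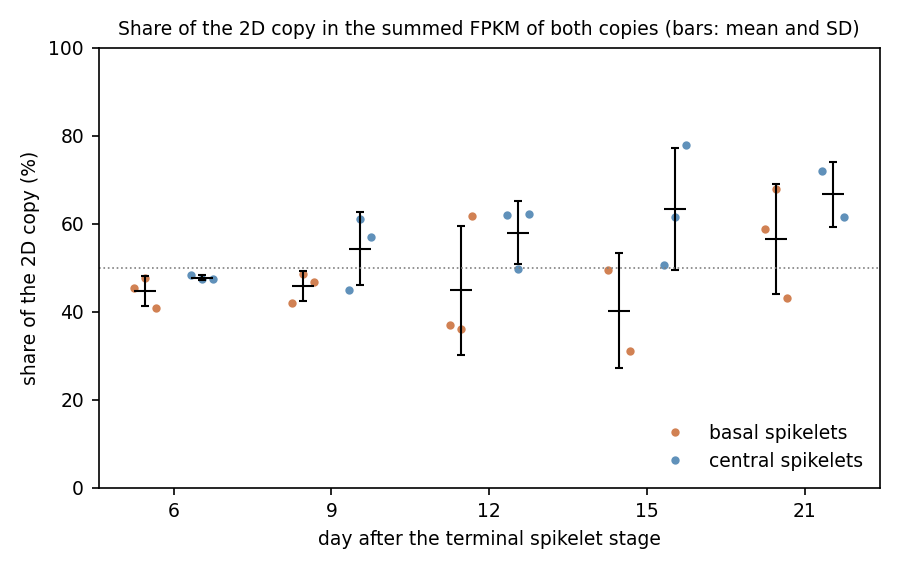
Share of the 2D copy in the summed FPKM of both UDT1-like models in percent (vertical axis) by day (horizontal axis), with basal spikelets left of central spikelets, points for libraries, bars for mean and SD and a dotted line at equal shares. The libraries of day 6 lie between 41.0 and 48.4%, and from day 9 on most central libraries lie above the line.

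Over the 12 group means of log2(FPKM + 0.1), the copies had a Pearson r of 0.986 with each other. This is a description over means that share their libraries and days. Of the 71963 tested models, 1177 (1.636%) had an r of at least 0.9 with the 2A copy, and the median over all was 0.037. The 5 models most like it, the 2D copy aside, were an aspartyl protease family gene (TraesCS4A03G1095400, r = 0.989), a glutathione S-transferase F10-like gene (TraesCS4D03G0760600, r = 0.981), an osmotin-like gene (TraesCS5B03G0221800, r = 0.979), a heavy metal-associated isoprenylated plant protein 35-like gene (TraesCS1D03G0572600, r = 0.977) and an uncharacterized gene (TraesCS3D03G0035000, r = 0.977). The aspartyl protease family gene averaged 1.44 ± 0.40 FPKM in basal spikelets, against 2.23 ± 0.24 FPKM in central ones on day 6 (SD, n = 3 each). Its log2 difference on that day was -0.57 ± 0.27 SE. The heavy metal-associated gene averaged 5.01 ± 0.27 FPKM in basal spikelets, against 8.10 ± 0.65 FPKM in central ones on day 6, a log2 difference of -0.62 ± 0.13 SE. The 5 models were chosen for a likeness that includes the day 6 groups, so these differences are a description with no p. None of these 5 had a day 6 difference as large as that of either UDT1-like copy.

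Other regulators of the tapetum show what surrounded these levels. A list chosen by words in names and descriptions held 40 tested models of 69 that matched. On day 6, 16 of the 40 were called lower in basal spikelets, beside 9.2% of all models, and 0 were called higher, with 2 higher at an unadjusted p under 0.05 and 0 by DESeq2 or limma. The median log2 difference was -0.73 over the list and 0.01 over all models. On day 9, 16 were called lower and 4 higher, beside 18.2% and 18.1% of all models, with a median of -0.34, and the 4 became 2 without basal day 9 replicate 1. On day 12, 10 were called lower and 6 higher, beside 14.5% and 13.6% of all models, with a median of 0.04. Genes named from this list and from those below had the lowest adjusted p in the mean of 6 days, so their values on single days are not independent of that choice. Their single-day differences are given as edgeR estimates with no p. The TIP2-like model was not chosen in this way.

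The receptor and ligand class came first in the pathway. MSP1, a receptor-like kinase that limits the number of cells entering the sporogenous fate in rice, had 8 tested MSP1-like models, which summed to 31.9 ± 2.3 FPKM in basal spikelets, against 29.4 ± 0.3 FPKM in central ones on day 6 (SD, n = 3 each). EdgeR called 0 of them on day 6, with 2 higher at an unadjusted p under 0.05 and 0 by DESeq2 or limma, and 2 of 8 higher in basal spikelets on day 9 and on day 12, beside 18.1% and 13.6% of all models. An MSP1-like model on chromosome 3A (TraesCS3A03G0983400) had 6.58 ± 0.48 FPKM in basal spikelets, against 4.65 ± 0.17 FPKM in central ones on day 9, and a mean log2 difference of 0.33 ± 0.05 SE over 6 days, the measure it was named for. Over the class, 3 of 8 were called higher in that mean, with a median of 0.09, beside 33.5% of all models called in either direction. The course of the 3A model had an r of 0.968 with the 2A UDT1-like copy. The 3 models of TPD1, the small secreted ligand of this receptor class, summed to 0.59 ± 0.19 FPKM in basal spikelets, against 0.94 ± 0.15 FPKM in central ones on day 6. EdgeR and DESeq2 called 0 of these 3, 1 was lower at an unadjusted p under 0.05, and limma on log2(FPKM + 0.1) called 1 lower, as did edgeR without central day 12 replicate 2.

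The bHLH factors described as EAT1-like, TDR-like, TIP2-like and Aborted Microspores-like were next. EAT1, known in rice for starting the death of the tapetum, had 7 models. Beside 9.2% of all models, all 7 were called lower in basal spikelets on day 6. They summed to 3.20, 3.76 and 2.84 FPKM in basal libraries, against 21.9, 18.8 and 22.8 FPKM in central libraries of day 6. On day 9 they summed to 12.5, 14.1 and 7.24 FPKM in basal libraries, against 6.33, 9.72 and 13.04 FPKM in central ones, and the positions overlapped, as they did for the 2D UDT1-like copy. By mean, as for UDT1-like, the highest group of this class was day 9 in basal and day 6 in central spikelets. The basal libraries of days 6 and 9 overlapped in the UDT1-like sum but not in the EAT1-like sum. Unlike UDT1-like, the EAT1-like sum was high again on day 15, at 7.27 ± 1.004 FPKM in basal spikelets (n = 2), against 15.7 ± 1.9 FPKM in central ones (n = 3). The models of the class differed in this. TraesCS6A03G0720200 and TraesCS6D03G0603400 were highest on central day 15, and the others on central day 6.

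TDR, a partner of EAT1 in rice, had 6 models. Beside 9.2% and 18.2% of all models, all 6 were called lower in basal spikelets on day 6 and again on day 9. They summed to 3.24 ± 0.03 FPKM in basal spikelets, against 15.9 ± 2.9 FPKM in central ones on day 6, and to 24.97 ± 6.0 FPKM in basal spikelets, against 78.5 ± 3.9 FPKM in central ones on day 9. On day 12 the sums were 31.6 ± 8.1 FPKM in basal spikelets, against 33.3 ± 3.9 FPKM in central ones, and edgeR called 0, with 0 at an unadjusted p under 0.05 and 0 by DESeq2 or limma. By mean, the TDR-like class was highest on day 12 in basal and on day 9 in central spikelets, but its basal libraries of days 9 and 12 overlapped, as did the basal UDT1-like sums of days 6 and 9. The single TIP2-like model (TraesCS7D03G0252700) averaged 7.20 ± 0.55 FPKM in basal spikelets, against 9.44 ± 1.76 FPKM in central ones on day 6, with a log2 difference of -0.32 ± 0.25 SE (adjusted p = 0.421). On day 9 it was lower in basal spikelets, at 5.52 ± 0.50 FPKM against 9.31 ± 0.67 FPKM in central spikelets (log2 difference -0.75 ± 0.25 SE, edgeR adjusted p = 0.0187). That call was lost with DESeq2, with the older form of edgeR, with limma on log2(FPKM + 0.1), and without basal or central day 9 replicate 2.

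Aborted Microspores is the bHLH factor of Arabidopsis that corresponds to TDR of rice. By description it had 2 models, and 1 of them joins 2 annotated genes. Whether these models correspond to TDR was not tested. They summed to 20.66 ± 1.15 FPKM in basal spikelets, against 20.62 ± 0.76 FPKM in central ones on day 6. EdgeR called 0 of them on that day, with 0 at an unadjusted p under 0.05 and 0 by DESeq2 or limma. On day 9 they summed to 16.65 ± 1.75 FPKM in basal spikelets, against 12.32 ± 0.65 FPKM in central ones. Beside 18.1% of all models, 1 of the 2 was called higher in basal spikelets. On day 12 they summed to 15.44 ± 2.14 FPKM in basal spikelets, against 10.08 ± 1.19 FPKM in central ones. Both were called higher there, beside 13.6% of all models. On that day edgeR called 4 of the 7 EAT1-like models lower, beside 14.5% of all models. The day 9 count became 0 without basal day 9 replicate 1 or central day 9 replicate 3 and 2 without central day 27 replicate 1. The day 12 count became 1 without basal day 12 replicate 2 or 3 or any 1 central library of that day. On day 27 the Aborted Microspores-like models summed to 7.44 ± 1.31 FPKM in basal spikelets, against 15.12 ± 6.76 FPKM in central ones. There 1 of the 2 was called lower, beside 10.4% of all models, and 2 without central day 27 replicate 2 or 3.

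MYB and PHD-finger factors followed. GAMYB, a MYB factor that carries gibberellin signals to the tapetum, had 7 models. Of these, 3 were called lower in basal spikelets on day 6, beside 9.2% of all models. The GAMYB model on chromosome 6A (TraesCS6A03G0327600) had 0.14 ± 0.11 FPKM in basal spikelets, against 2.72 ± 0.50 FPKM in central ones on day 6 (log2 difference -4.16 ± 0.53 SE). MYB80, a later factor of tapetum function, had 2 models, both called lower in basal spikelets on day 9, beside 18.2% of all models. By DESeq2 or the older form of edgeR, 1 was called. On day 9 the MYB80-like models summed to 1.27 ± 0.74 FPKM in basal spikelets, against 4.91 ± 0.67 FPKM in central ones. PTC1 (Persistent Tapetal Cell 1), a PHD-finger protein needed for tapetal degeneration in rice, was near 0 in both positions on day 6. On day 9 its 3 models summed to 0.09, 0.08 and 0.07 FPKM in basal libraries, against 3.31, 6.85 and 7.20 FPKM in central ones. Beside 18.2% of all models, all 3 were called lower. On day 15 they summed to 5.80 ± 1.73 FPKM in basal spikelets (n = 2), against 10.6 ± 1.4 FPKM in central ones (n = 3), when both UDT1-like copies were under 1 FPKM in every library.

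**Figure D4:**
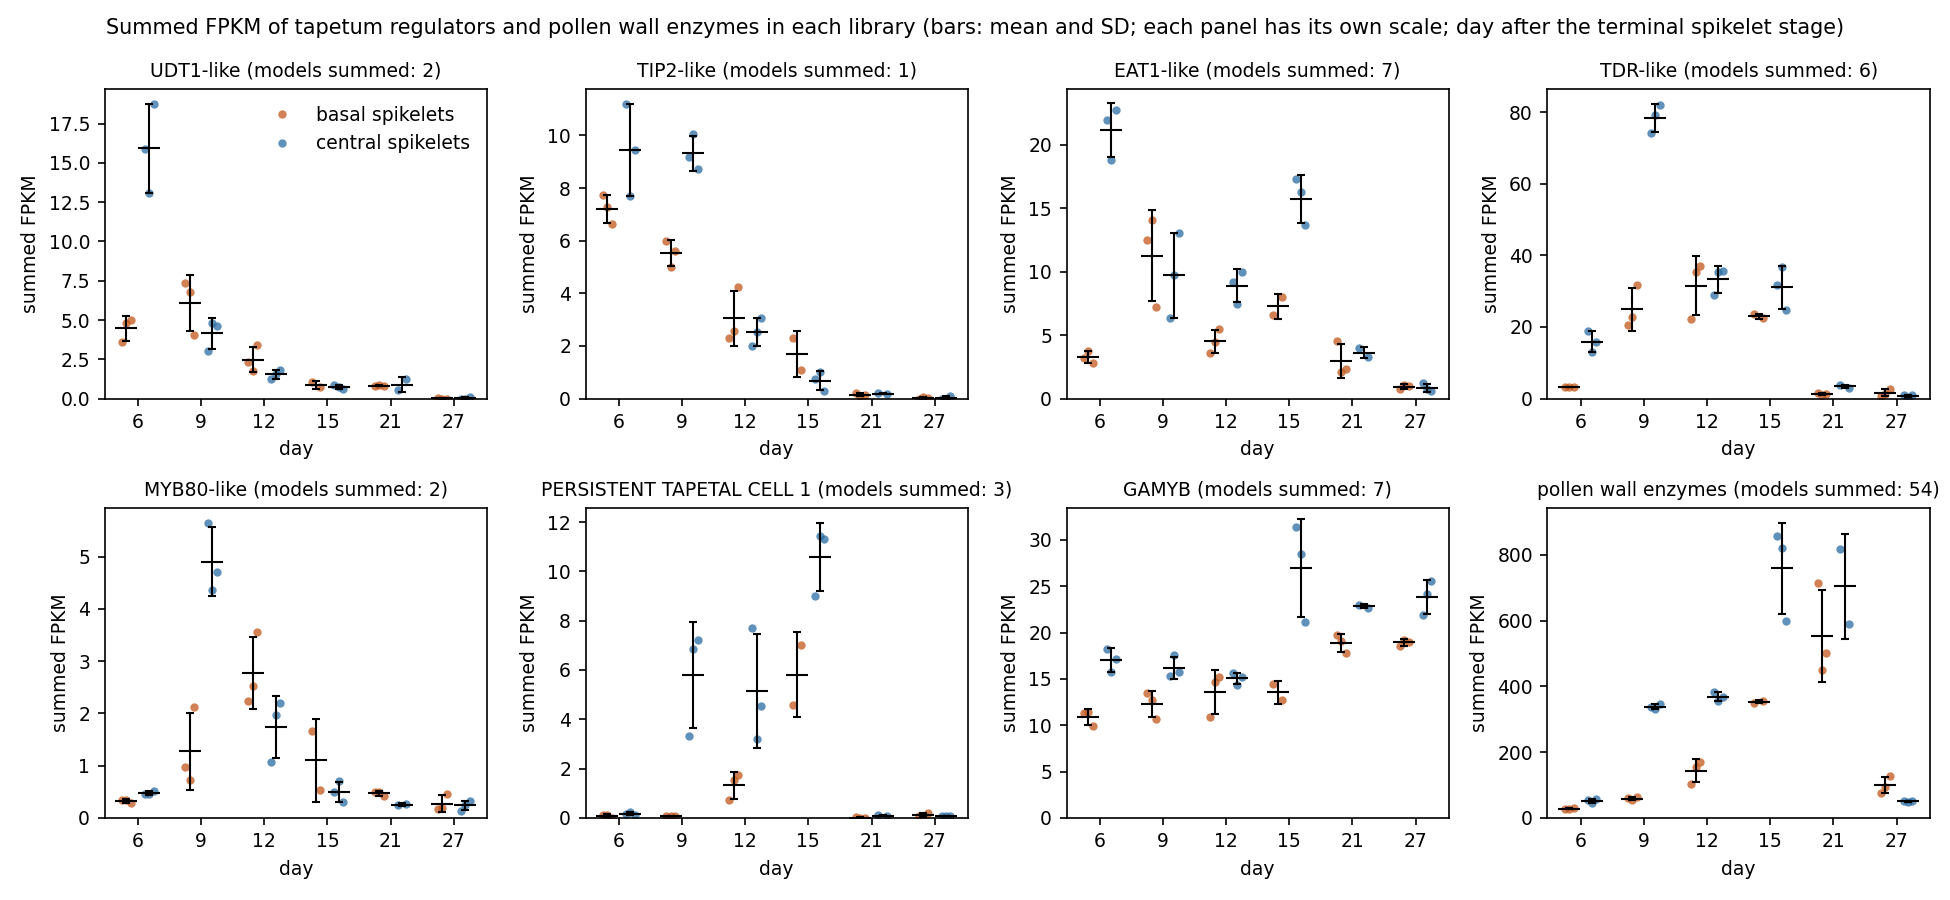
Summed FPKM (vertical axes, each panel with its own scale) of UDT1-like models, of classes of tapetum regulators and of pollen wall enzymes by day (horizontal axes), with basal spikelets left of central spikelets, points for libraries and bars for mean and SD. The UDT1-like sum is highest on day 6 in central spikelets at 15.9 FPKM. The TIP2-like and EAT1-like sums are highest in that group as well, at 9.44 and 21.15 FPKM. TDR-like, MYB80-like and PTC1 models have their highest groups from day 9 on.

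Enzymes and transporters that build the pollen wall in the tapetum were also listed by words in names and descriptions. The words took in lipid-transfer, tapetum-specific and anther-specific descriptions too. The list held a model described as CAP-Gly domain-containing linker protein 1. Whether its models are targets of the regulators above was not tested. Of 92 matching models 54 were tested. On day 6 edgeR called 9 of them lower in basal spikelets, beside 9.2% of all models, with a median log2 difference of -0.26; DESeq2 and the older form of edgeR called 14. It called 0 higher, as did DESeq2 and limma, with 0 higher at an unadjusted p under 0.05. On day 9, 25 were called lower, beside 18.2% of all models, and 1 higher, with a median of -1.87. The 1 became 2 without basal day 6 replicate 1, basal day 9 replicate 2, central day 9 replicate 1 or central day 27 replicate 1 or 2. On day 12, 35 were called lower, beside 14.5% of all models, and 4 higher, with a median of -1.91. Their sum was 27.4 ± 1.1 FPKM in basal spikelets, against 52.1 ± 5.9 FPKM in central ones on day 6, and 58.5 ± 4.5 FPKM in basal spikelets, against 337.8 ± 7.2 FPKM in central ones on day 9. On day 15 it was 353.0 ± 4.1 FPKM in basal spikelets (n = 2), against 759.0 ± 139.4 FPKM in central ones (n = 3). On day 21 the positions overlapped, at 554.3 ± 140.2 FPKM in basal spikelets (n = 3), against 704.6 ± 160.3 FPKM in central ones (n = 2). There 4 models were called higher and 6 lower, beside 17.1% of all models called in either direction. The 4 became 1 under the older form of edgeR, and the 6 became 2 without central day 21 replicate 1. On day 27 the sum was 99.19 ± 25.04 FPKM in basal spikelets, against 50.5 ± 2.1 FPKM in central ones. On that day 16 models were called higher and 1 lower, beside 11.3% and 10.4% of all models, with a median log2 difference of 0.45. The 1 became 0 without any 1 basal library of day 27 and without central day 27 replicate 2 or 3. A tetraketide alpha-pyrone reductase 1-like gene (TraesCS5B03G0708100), of sporopollenin synthesis, had 0.76 ± 0.08 FPKM in basal spikelets, against 0.78 ± 0.12 FPKM in central ones on day 6. On day 9 it had 0.76 ± 0.10 FPKM in basal spikelets, against 19.3 ± 1.8 FPKM in central ones (log2 difference -4.66 ± 0.17 SE).

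Meiosis, by which pollen mother cells divide, takes place in the same anthers. Of 74 tested models of meiosis genes, 5 were called lower and 4 higher in basal spikelets on day 6, beside 9.2% and 7.91% of all models, with a median log2 difference of 0.00. The 4 became 1 or 2 without any 1 basal library of day 6 or without central day 6 replicate 2 or 3. On day 9, 5 were called lower and 18 higher, beside 18.2% and 18.1%, with a median of 0.19. The 5 became 3 without basal day 9 replicate 2 or central day 9 replicate 1 or 2, and the 18 became 8 or 9 without basal day 9 replicate 2 or 3 or central day 9 replicate 1, 8 with no filter and 9 with limma on log2(FPKM + 0.1). A model described as disrupted meiotic cDNA 1 (TraesCS5B03G0364100), the recombinase of meiosis, had 2.26 ± 0.25 FPKM in basal spikelets, against 5.73 ± 0.79 FPKM in central ones on day 6 (log2 difference -1.27 ± 0.18 SE). A SPO11-1 model (TraesCS5B03G0985500), the maker of the breaks that start recombination, had a log2 difference of -0.18 ± 0.15 SE on day 6 and of 0.77 ± 0.14 SE on day 9.

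The labelled tissue was set beside a list of MADS-box genes chosen by words in their descriptions. Models described as AP1 and as MADS-box transcription factor 15-like were among them. The 32 tested models summed to 578.3 ± 22.8 FPKM in basal spikelets, against 593.0 ± 14.3 FPKM in central ones on day 6. On day 27 they summed to 867.0 ± 91.2 FPKM in basal spikelets, against 1155.0 ± 68.2 FPKM in central ones. Genes of this list were thus present at the start and the end of sampling, but the sum does not single out floral organs. On day 6, 4 of them were called lower and 1 higher in basal spikelets, beside 9.2% and 7.91% of all models. The higher call was lost without any 1 basal library of day 6 or without central day 6 replicate 3, and 3 were called without central day 27 replicate 1. On day 9 edgeR called 13 lower, beside 18.2% of all models, and 0 higher, with 0 higher at an unadjusted p under 0.05, 0 by DESeq2 or limma and 1 without central day 27 replicate 1. A MADS1-like gene (TraesCS4D03G0590000), of the class that specifies the floret in rice, had 4.59 ± 0.18 FPKM in basal spikelets, against 12.2 ± 1.7 FPKM in central ones on day 6 (log2 difference -1.33 ± 0.16 SE). Its part in the levels of the UDT1-like copies was not tested.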

How the data were processed

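Whole spikelets were profiled by RNA sequencing in 34 libraries, grouped by the position and day in the labels. The authors deposited 1 table for the series, with FPKM and estimated counts for each library, which were whole numbers with no normalization. The authors had scaled FPKM for transcript length and library total, per the file headers and values. The submitters' processing notes name Bowtie 0.12.2 and the mouse builds mm8 and mm9; the aligner, counter, strand setting and wheat build are not given in the sources used here. Small counts piled up at multiples of 4 (33.9 to 35.6% of them, against 25% if even), so the floor was set at 12 counts per library. No sequence is printed.

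The members and lists were chosen with earlier results of these data known. Models that reached 1 FPKM in 2 or more libraries (71963, holding 98.86 to 99.21% of the counts) were fitted in edgeR 4.0.16 (R 4.3.3; glmQLFit with legacy = FALSE, TMM, 12 group means), with 0.05 as the threshold on p adjusted by Benjamini-Hochberg over all of them. SE is the absolute log2 difference divided by the square root of F. Alternatives used limma 3.58.1 and DESeq2 1.42.0; those for lists and their named genes were chosen after seeing the data. Named genes were the members and the 5 models most like the 2A copy. Others were taken from up to 2 per list with the lowest adjusted p in each direction in the mean of 6 days. Not all of these are described. Left out were, among others, the MADS-box genes TraesCS5D03G0894800 and TraesCS2D03G0605600 and a STRICTOSIDINE SYNTHASE-LIKE 10-like gene (TraesCS5D03G0479000). These were higher in basal spikelets in that mean, while the MADS-box and pollen wall genes described were lower. The TIP2-like model was the 1 model of its class and was named after its values were seen.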

Additional observations from a re-analysis of the deposited data

Results flagged for a closer look

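The difference of the 2D copy (TraesCS2D03G0457200) between basal and central spikelets was not the same on all days, by a test of that change itself (edgeR's F test over 5 contrasts, adjusted p = 1.68e-03). On day 6 it was lower in basal than in central spikelets in 3 of 3 libraries (log2 difference -1.86), and on day 9 the libraries of both positions overlapped (log2 difference 0.26). Leaving out each of the 34 libraries in turn gave adjusted p of 7.80e-04 to 8.28e-03 by the same F test. That test called 56.7% of all tested models, so such a change was common. With edgeR's older quasi-likelihood form the 2D copy did not pass.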

How the results depend on the processing

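The number of UDT1-like models called was 2 on day 6 and 2 for basal day 9 against central day 6 under every alternative run. The 2D copy kept its direction there. These counts include the 2A copy, which is named in the rule. The alternatives were DESeq2 size factors, DESeq2, edgeR's older quasi-likelihood form, limma on log2(FPKM + 1) or log2(FPKM + 0.1), no filter, a stricter filter, a replicate block and leaving out each library. With the older form, 1 model was called for the change of the difference over days (2D adjusted p = 0.129), and 0 on day 9, on day 12 and for basal day 12 against central day 9; DESeq2 also called 0 in the last of these (2D adjusted p = 0.155). With limma on log2(FPKM + 1), 1 model was called in the mean of 6 days. Leaving out each library in turn gave 0 to 1 called models on day 9, 0 to 1 on day 12 and 0 to 1 for basal day 12 against central day 9. The cause was not tested. The replicate numbers did not pair the samples: the correlation of deviations between same-numbered samples had a median of 0.01, and 2 of 16 pairs exceeded 0.1. With the replicate block the 2D copy had a log2 difference of -1.87 on day 6 (adjusted p = 6.93e-05), and the block changed no call of either UDT1-like model. Below 1 FPKM, from day 15 on, low counts limit every difference.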
